A study of Arabidopsis thaliana with 4 samples.

Results

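Pericentromeric CHH gains are the CHH regions that the deposited list of differentially methylated regions places in DNA around the centromeres with a higher methylation level in ndx1-4 than in Col-0. CHH is a cytosine followed by 2 bases that are each A, C or T. Regions were chosen by the 2 deposited CHH levels, the one of ndx1-4 being above that of Col-0, and by a midpoint within 12.9-16.9 Mb of chromosome 1, 2.0-6.6 Mb of chromosome 2, 11.2-16.0 Mb of chromosome 3, 2.4-5.8 Mb of chromosome 4 or 10.1-14.4 Mb of chromosome 5. There were 245 such regions among 7023 listed regions of all 3 sequence contexts, among 3213 CHH regions and among 3177 CHH regions on the 5 nuclear chromosomes. They made up 16.8% of the 1455 CHH regions listed in these windows, the other 1210 being lower in ndx1-4, while 41.9% of all nuclear CHH regions were gains. These shares follow from the rule that chose the regions and are given as a description.

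The ndx1-4 plants carry an insertion allele of NDX (NODULIN HOMEOBOX, a homeodomain protein), and Col-0 is the wild-type accession they were compared with. Each genotype had 2 bisulfite sequencing libraries from genomic DNA of whole 14-day-old seedlings, and the bisulfite step turns unmethylated cytosine into a base read as thymine and spares methylated cytosine. The list gives 1 level per genotype for each region, a fraction from 0 to 1 combining both libraries, so the spread between libraries is unknown and nothing was tested across them. In DNA from whole seedlings, a change within cells and a change in the mix of cells cannot be told apart.

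Methylation of CHH sites has no methylated partner on the opposite strand to be copied from after replication, so it has to be re-established continually. In Arabidopsis this is done by DRM2, which is guided by small RNAs in RNA-directed DNA methylation, and by CMT2, which acts on heterochromatin bearing methylated histone H3. Pericentromeric DNA is rich in transposable elements, poor in genes and densely methylated in wild-type plants.

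The sequences of 5 regions at the extremes of the list are shown for the members described in the following paragraphs, and they are not typical of the 245. They are from the RefSeq copy of TAIR10.1, plus strand, 5′ to 3′, and the capitals mark each CHH cytosine, C where it is on the plus strand and G where it is on the minus strand. The first is the region with the largest difference, in which a run of alternating G and A lies over most of the CHH cytosines, 48 on the minus and 7 on the plus strand. The next has the second largest difference and the third the largest fold change. The last 2, chosen after their values were seen, are the shortest region with a CT repeat and the region with the most further copies in the genome.
chr5:10708256-10708408: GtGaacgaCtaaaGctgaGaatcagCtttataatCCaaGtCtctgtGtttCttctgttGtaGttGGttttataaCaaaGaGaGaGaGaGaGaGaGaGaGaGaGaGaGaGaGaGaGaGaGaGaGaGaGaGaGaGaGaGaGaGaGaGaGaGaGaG
chr4:5210857-5211047: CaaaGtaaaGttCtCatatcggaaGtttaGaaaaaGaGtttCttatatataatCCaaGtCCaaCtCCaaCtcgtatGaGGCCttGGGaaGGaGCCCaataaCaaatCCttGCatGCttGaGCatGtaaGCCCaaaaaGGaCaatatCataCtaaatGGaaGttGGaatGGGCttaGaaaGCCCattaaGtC
chr3:15777412-15777676: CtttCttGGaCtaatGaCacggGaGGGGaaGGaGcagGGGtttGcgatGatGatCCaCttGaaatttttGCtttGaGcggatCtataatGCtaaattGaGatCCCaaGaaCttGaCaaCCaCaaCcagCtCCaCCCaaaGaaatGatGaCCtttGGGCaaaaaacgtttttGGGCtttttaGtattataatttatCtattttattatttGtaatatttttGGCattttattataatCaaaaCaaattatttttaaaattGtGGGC
chr1:13430232-13430282: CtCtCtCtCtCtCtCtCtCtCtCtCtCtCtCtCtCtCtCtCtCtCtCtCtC
chr1:15019680-15019751: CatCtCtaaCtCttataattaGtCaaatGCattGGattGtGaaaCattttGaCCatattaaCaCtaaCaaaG

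The median level of the 245 regions was 0.150 in ndx1-4 (range 0.0434 to 0.446) and 0.0673 in Col-0 (range 0.00519 to 0.326). The median difference was 0.0808, with quartiles of 0.0614 and 0.0982, and 60 regions (24.5%) had a difference of at least 0.1. An absolute difference of that size was listed for 26.4% of all nuclear CHH regions, 36.2% of the arm gains and 15.6% of the losses of the windows. The median ratio of the levels was 2.15, and it was 2 or more in 147 regions (60.0%, against 67.2% of the arm gains). The regions were short, with a median length of 134 bp (51 to 1193) and a median of 35 counted cytosines (7 to 284). In all, they covered 37671 bp and 9646 cytosines. The 1210 losses of the same windows had median levels of 0.0649 in ndx1-4 and 0.143 in Col-0, and gains and losses are themselves defined by which of the 2 levels is higher. The 1087 CHH gains on the chromosome arms had medians of 0.152 in ndx1-4 and 0.0587 in Col-0, close to those of the pericentromeric gains, and a longer median length of 166 bp. The smallest 3 gains were 0.0330, 0.0333 and 0.0370, and the smallest 3 losses of the windows were −0.0276, −0.0312 and −0.0317. The gains nearest to a window limit lay 12189 and 12980.5 bp inside it, and the nearest CHH gains left out lay 6268.5 and 7693 bp outside.

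**Figure D1:**
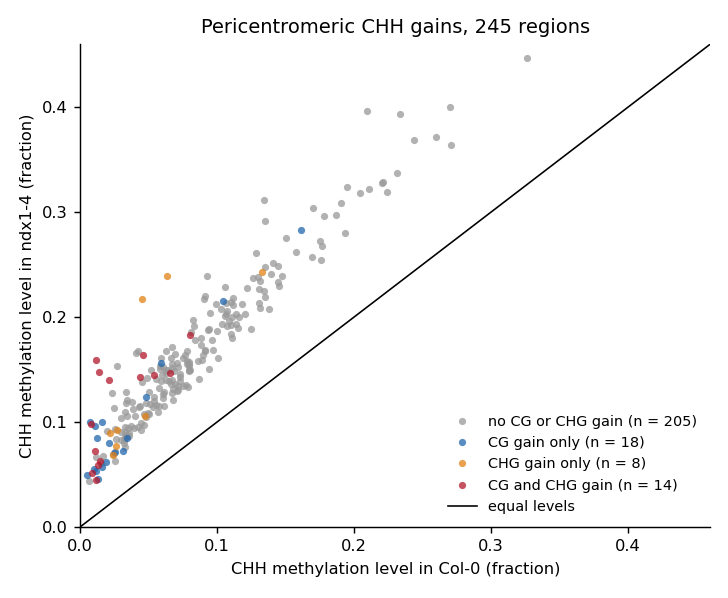
CHH methylation level in ndx1-4 (vertical axis, fraction) against Col-0 (horizontal axis, fraction) for the 245 pericentromeric CHH gains, coloured by the listed CG and CHG gains they overlap; the line marks equal levels. All points lie above the line by the rule, and 32 of the 40 regions with a CG or CHG gain lie below 0.05 in Col-0.

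The largest gain, chr5:10708256-10708408, had a level of 0.396 in ndx1-4 and 0.210 in Col-0. It lies in the annotated pseudogene AT5G28673, and 76 of its 153 bp are one uninterrupted GA repeat, visible in the first sequence above. The second, chr4:5210857-5211047, had 0.311 in ndx1-4 and 0.134 in Col-0, and lies 557 bp downstream of AT4G08263, annotated as a storekeeper-like DNA-binding protein. Only 38 of its 69 reference CHH cytosines were counted. The third, chr2:4541934-4543126, is the longest of the 245, at 1193 bp and 245 cytosines, with 0.239 in ndx1-4 and 0.0631 in Col-0. It ends 49 bp upstream of the protein-coding gene AT2G11405. The fourth, chr2:5636756-5637009, had 0.217 in ndx1-4 and 0.0451 in Col-0. It covers 126 bp of the noncoding exon at the 5′ end of ABH1, which encodes the large subunit of the nuclear cap-binding complex. The fifth, chr4:2431854-2432065, had 0.394 in ndx1-4 and 0.233 in Col-0, 182 bp downstream of AT4G04775. The differences of these 5 regions lay between 0.161 and 0.186, while their Col-0 levels ranged from 0.0451 to 0.233.

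Of the next 5 by difference, 4 are described. On chromosome 3, chr3:14084414-14084668 had 0.291 in ndx1-4 and 0.135 in Col-0, and lies 68 bp upstream of AT3G33528. The region chr3:15777412-15777676 lies within AT3G43970, over 150 bp of its coding sequence and 115 bp of intron. Its level was 0.159 in ndx1-4 and 0.0113 in Col-0, a 14.1-fold ratio that is the highest of the 245. Far from genes, chr5:12401308-12401437 had 0.239 in ndx1-4 and 0.0925 in Col-0, and its nearest protein-coding gene is 39051 bp away. The tenth, chr4:5383251-5383411, had 0.303 in ndx1-4 and 0.170 in Col-0, and lies 277 bp downstream of MEKK3, a kinase of the mitogen-activated protein kinase cascade. The largest gain on chromosome 1, chr1:13544676-13544859, had 0.324 in ndx1-4 and 0.195 in Col-0, and lies 661 bp downstream of ACC1, which encodes the cytosolic acetyl-CoA carboxylase. Among the 5 regions with the most cytosines, chr2:6016575-6016868 (91 cytosines) had 0.260 in ndx1-4 and 0.128 in Col-0, and lies 1690 bp upstream of AGL44, a MADS-box gene of the nitrate response in roots.

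Split by their Col-0 level, the regions differed in the other contexts and in copy number. The Col-0 level is a value the rule used, so the class sizes and the counts by class are a description. Below 0.05 in Col-0 there were 84 regions, or 34.3% (44.2% of the arm gains, and 18.7% of all nuclear CHH regions, losses included), with medians of 0.0934 in ndx1-4 and 0.0314 in Col-0. Between 0.05 and 0.1 there were 89 regions, with medians of 0.150 in ndx1-4 and 0.0709 in Col-0. At 0.1 and above there were 72 regions, with medians of 0.237 in ndx1-4 and 0.135 in Col-0. The median ratio was thus lower where the wild-type level was higher, at 3.18, 2.13 and 1.69 over the 3 classes, which were cut on the denominator of that ratio. The median difference ran the other way, at 0.0589, 0.0779 and 0.102. A listed CG gain overlapped 26 of the 84 regions in the lowest class, 4 of 89 in the middle class and 2 of 72 in the highest. A listed CHG gain overlapped 17, 4 and 1 regions of these classes. The regions with a further copy of their sequence numbered 25, 38 and 39. Without a split by class, these 3 shares were 8.69%, 5.16% and 43.1% over all nuclear CHH regions. Over the arm gains they were 22.4%, 13.1% and 22.8%. The split by Col-0 level was not made for other CHH regions, so it is unknown whether the trend is particular to these.

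**Figure D2:**
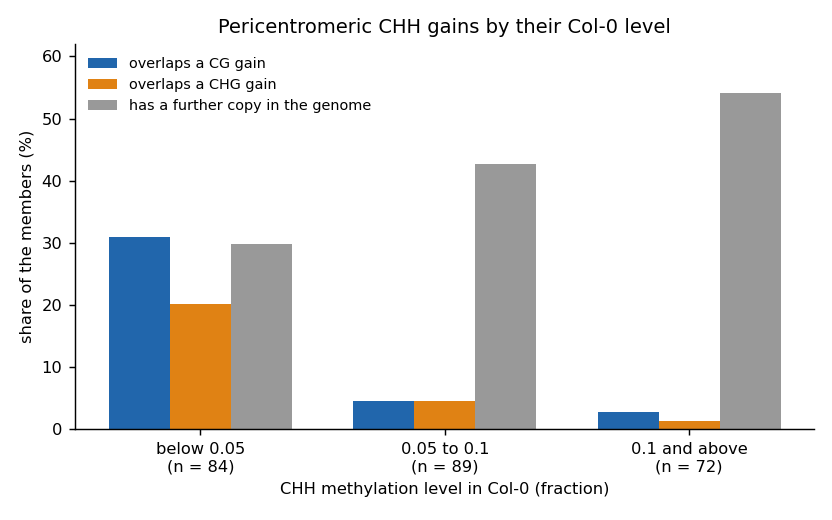
Share of the pericentromeric CHH gains (vertical axis, percent) that overlap a listed CG gain, overlap a listed CHG gain or have a further copy in the nuclear genome, by Col-0 level class (horizontal axis, with the number of regions). The CG share is 31.0% below 0.05 and 2.78% at 0.1 and above, and the share with a further copy is 29.8% and 54.2%. The same split was not made for other CHH regions.

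CHH methylation was accompanied by CG or CHG gains at a minority of the regions. CG methylation is maintained by MET1 after replication, and CHG methylation mainly by CMT3. A listed CG gain overlapped 32 of the 245 regions (13.1%, against 8.69% of all nuclear CHH regions) and a listed CHG gain 22 (8.98%, against 5.16%). Both kinds overlapped 14 regions, a CG gain alone 18, a CHG gain alone 8 and neither 205. Of the 1087 CHH gains on the arms, 22.4% overlapped a CG gain and 13.1% a CHG gain. Both shares were thus lower in the pericentromeric gains than in the arm gains. The shares over all nuclear CHH regions include CHH losses, which hardly ever overlapped such gains. Of the 1210 pericentromeric losses, 1 overlapped a CG gain and 0 a CHG gain, and of the 635 arm losses 0 overlapped either. The CG share was 8.22% with the windows trimmed by 0.5 Mb at each end, and it was 21.7% over regions with no further copy in the genome. These lists come from the same libraries and the same genotype contrast, and no test was made.

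In the other contexts the levels at these places were far higher. The overlapping CG gains had a median level of 0.714 in ndx1-4 (0.283 to 0.885) and 0.115 in Col-0 (0.0152 to 0.596). The 25 overlaps with CHG gains, over 22 regions, had a median of 0.389 in ndx1-4 and 0.0530 in Col-0. The 40 regions with a CG or CHG gain had a median CHH level of 0.0946 in ndx1-4 and 0.0210 in Col-0, against 0.156 in ndx1-4 and 0.0769 in Col-0 for the other 205. They were also longer, with a median of 188 bp against 121 bp, though an overlap of 1 bp sufficed, which favours longer regions. They lay closer to protein-coding genes, with a median distance of 360.5 bp against 2125 bp. A further copy of the sequence was found for 2 of the 40, against 100 of the 205.

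**Figure D3:**
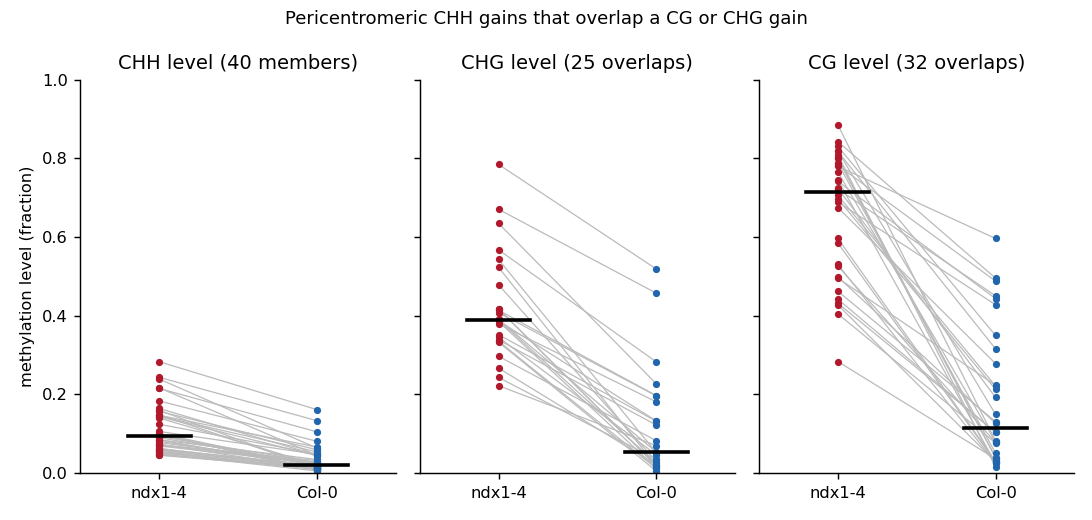
Methylation level (vertical axis, fraction) in ndx1-4 and Col-0 for the 40 pericentromeric CHH gains that overlap a CG or CHG gain, in CHH, and for the 25 CHG and 32 CG gains that overlap them; lines join the 2 levels of one region and bars are medians. The CG medians are 0.714 in ndx1-4 and 0.115 in Col-0, and the CHH medians are 0.0946 in ndx1-4 and 0.0210 in Col-0.

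There were 16 regions that overlapped a listed region of both other contexts. The CG and CHG levels given are those of the whole listed CG or CHG region, which can reach beyond the CHH region. At chr3:15777412-15777676, inside AT3G43970, the CG level was 0.800 in ndx1-4 and 0.0384 in Col-0, and the CHG level was 0.417 in ndx1-4 and 0.0183 in Col-0. The same CG and CHG regions reach over the neighbouring gain chr3:15776992-15777289, which lies 119 bp downstream of that gene and had CHH levels of 0.0981 in ndx1-4 and 0.00770 in Col-0. In Col-0 each of these levels was below 0.05. The gain with the most cytosines, chr3:15500357-15501479 (284 cytosines over 1123 bp), had CHH levels of 0.140 in ndx1-4 and 0.0207 in Col-0. Its CG level was 0.885 in ndx1-4 and 0.0810 in Col-0, and its 2 CHG gains had 0.478 and 0.523 in ndx1-4, against 0.0293 and 0.0175 in Col-0. It lies 537 bp upstream of AT3G43580, annotated as a beta-galactosidase-related gene. The next 3 places had higher CG levels in Col-0. At chr3:11744069-11744270, 927 bp upstream of the B12D protein gene AT3G29970, the CHH level was 0.164 in ndx1-4 and 0.0454 in Col-0, the CHG level 0.635 in ndx1-4 and 0.227 in Col-0, and the CG level 0.843 in ndx1-4 and 0.495 in Col-0. At chr1:16659518-16659710 the CHH level was 0.183 in ndx1-4 and 0.0804 in Col-0, the CHG level 0.543 in ndx1-4 and 0.0517 in Col-0, and the CG level 0.830 in ndx1-4 and 0.350 in Col-0. At chr3:11761087-11761384, which overlaps 44 bp of the pseudogene AT3G30122, the CHH level was 0.143 in ndx1-4 and 0.0436 in Col-0, the CHG level 0.352 in ndx1-4 and 0.132 in Col-0, and the CG level 0.442 in ndx1-4 and 0.103 in Col-0. The CG and CHG levels were above the CHH level at each of these 3 regions in ndx1-4. On chromosome 1, chr1:13603957-13604574 (172 cytosines) had CHH levels of 0.144 in ndx1-4 and 0.0537 in Col-0. A CG gain with 0.766 in ndx1-4 and 0.0782 in Col-0 shares 284 bp with it and runs on beyond it. A CHG gain with 0.385 in ndx1-4 and 0.0125 in Col-0 shares only 10 bp with it and lies mostly outside.

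Elsewhere a CHH gain met a CG loss. A listed CG loss overlapped 5 regions (2.04%, against 4.31% of all nuclear CHH regions) and a CHG loss 0 of 245 (3.37% of all nuclear CHH regions). The shares over all regions include CHH losses. Of the arm gains, 1 of 1087 (0.0920%) overlapped a CG loss and 0 a CHG loss. Of the pericentromeric losses, 2.64% overlapped a CG loss and 3.47% a CHG loss. The median CG level at the 5 losses was 0.229 in ndx1-4 and 0.788 in Col-0. At chr2:4541934-4543126, the longest gain, a CG loss begins in the last 75 bp of the region and runs on beyond it, with a CG level of 0.133 in ndx1-4 and 0.887 in Col-0. The same region overlaps 3 CHG gains with levels of 0.408, 0.567 and 0.785 in ndx1-4, against 0.196, 0.282 and 0.519 in Col-0. These CHG gains share 6, 92 and 86 bp with it. The region chr4:4989512-4990017 (113 cytosines) has the same arrangement. Its CHH level was 0.243 in ndx1-4 and 0.133 in Col-0, its CHG gain had 0.670 in ndx1-4 and 0.457 in Col-0, and the CG loss over its last 92 bp had 0.384 in ndx1-4 and 0.766 in Col-0. A CHG gain with a CG loss occurred at these 2 regions of the 245.

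The gains were not spread over the windows as the losses were. Per Mb, the windows held 11.6 CHH gains and the arms 11.1, whereas they held 57.3 losses and the arms 6.48. The number of gains was 45, 59, 49, 45 and 47 on chromosomes 1 to 5, or 10.2 to 13.2 per Mb of window. Within a window, the median gain lay 68.1% of the way from the centre to the edge, against 46.9% for the losses. In 5 zones of equal width counted from the centre to the edge, the gains numbered 35, 22, 41, 61 and 86, against 273, 258, 256, 245 and 178 losses. Gains were therefore 11.4% of the CHH regions in the zone at the centre and 32.6% in the zone at the edge. On every one of the 5 chromosomes, the share of gains was higher in the outer part of the window (20.1% to 31.9%) than in the inner part (7.63% to 14.2%), with the limit midway between centre and edge.

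**Figure D4:**
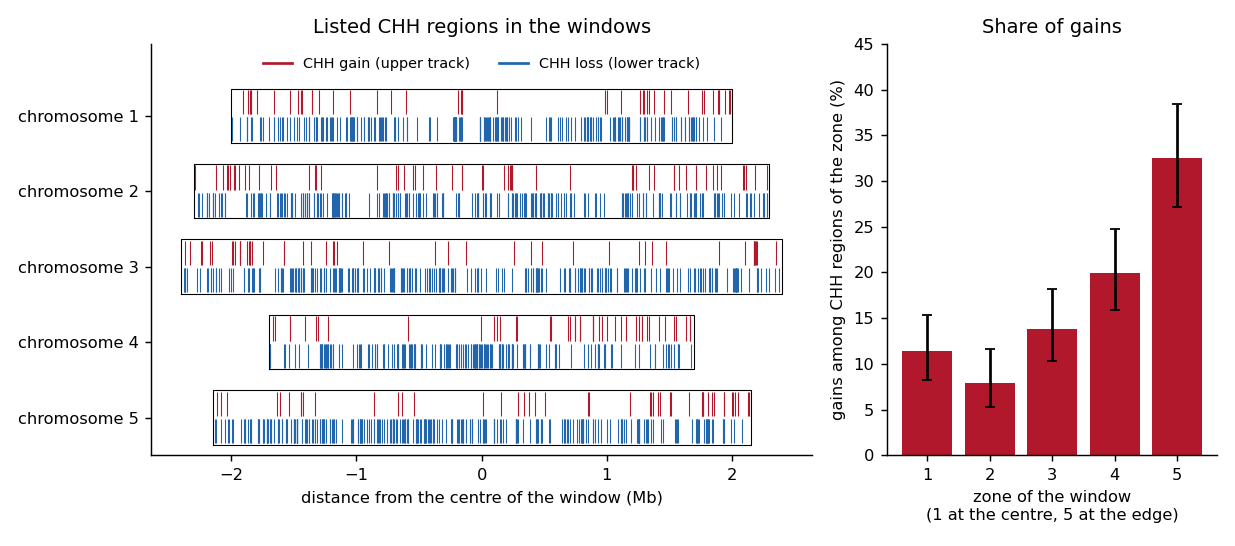
Left, position of each CHH gain (upper track) and CHH loss (lower track) as distance from the centre of the pericentromeric window in Mb, for the 5 chromosomes, with the window drawn as a box. Right, share of gains among the CHH regions of 5 zones of equal width (percent, with 95% Wilson intervals that cover the counting of regions only), from 11.4% at the centre to 32.6% at the edge.

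Gains and losses also differed in their distance to genes. The median distance to the nearest protein-coding gene was 1672 bp for the gains, 7725 bp for the losses of the windows and 478 bp for the gains on the arms. Over all nuclear CHH regions it was 1380 bp. Of the CHH regions lying 1 to 500 bp from a gene, 44 were gains and 56 losses. Of those more than 10000 bp away, 45 were gains and 526 losses. Gains were thus 44.0% of the CHH regions at 1 to 500 bp, 7.88% of those beyond 10000 bp and 26.4% of those in a gene. In a gene or within 500 bp lay 29.4% of the gains and 11.1% of the losses, against 31.5% of all nuclear CHH regions. Beyond 10000 bp lay 18.4% of the gains and 43.5% of the losses, against 19.2% of all. The gains were thus near the share over all regions, and the losses were not. Among the 44 gains within 500 bp of a gene, 27 lay on its upstream side and 17 downstream, while 20 of the 56 losses lay upstream and 36 downstream. Within 2000 bp, 55.8% of the gains and 51.4% of the losses lay upstream, and at any distance 56.2% of the gains and 56.0% of the losses did. Distance to genes also changed along the windows, with a median over gains and losses together of 13788.5 bp in the zone at the centre and 1719.5 bp in the zone at the edge. In each of the 5 zones the median was smaller for the gains, at 3821 bp against 15033 bp for the losses at the centre and 840 bp against 2293.5 bp at the edge. The parts of position and of gene distance were not tested.

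**Figure D5:**
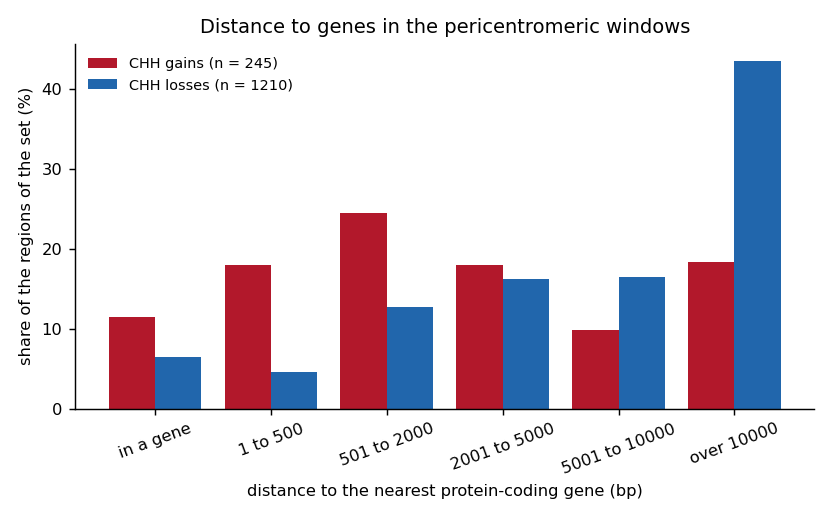
Share of the 245 CHH gains and of the 1210 CHH losses of the pericentromeric windows (vertical axis, percent) by distance to the nearest protein-coding gene (horizontal axis, bp). The gains have 18.0% of their regions at 1 to 500 bp and 18.4% beyond 10000 bp, against 4.63% and 43.5% for the losses.

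A protein-coding gene overlapped 28 gains (11.4%, against 13.4% of all nuclear CHH regions), an annotated pseudogene 38 (15.5%, against 19.6%), and 176 lay in no annotated gene or pseudogene (71.8%, against 65.1%). For the losses of the windows the shares were 6.45%, 35.9% and 56.9%. Of the 28 gains in genes, 14 overlapped coding sequence, 9 a noncoding exon and 13 an intron, and 7 lay in introns alone. Besides ABH1 and AT3G43970, 3 genes, named after their values were seen, held the next largest differences. AT5G36228, annotated as a zinc-binding protein, held a gain with 0.212 in ndx1-4 and 0.0990 in Col-0. ARF23, which encodes an auxin response factor, held one in an intron with 0.371 in ndx1-4 and 0.259 in Col-0. AT5G36210, annotated as an alpha/beta-hydrolase, held one with 0.251 in ndx1-4 and 0.141 in Col-0. Of the 69 gains that overlap an annotated record, 66 overlap one with a description. No such description names a transposon family, so the regions could not be sorted by family.

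Repeated sequences were less common among the gains than among the losses of the windows, and more common than among the arm gains. A further copy, here a second place in the nuclear genome aligning over at least 80% of the region at 90% identity or more, was found for 102 gains (41.6%, against 43.1% of all nuclear CHH regions), and 53 had at least 10 copies (21.6%, against 16.7%). Of the losses in the windows 60.6% had a further copy, and of the arm gains 22.8%. At least 10 copies were found for 27.3% of these losses and 6.62% of the arm gains. The shares over all nuclear CHH regions pool the windows with the arms. The 102 gains had 5530 further copies, of which 4565 (82.5%) lie in the windows. Among these 102, 30 had a copy at another listed CHH gain (12.2% of the 245, against 7.27% of all nuclear CHH regions). A copy at a listed CHH loss was found for 41 (16.7%, against 13%), and 25 had both (10.2%, against 4.19%), so copies of one sequence were listed in opposite directions. Of the losses in the windows, 21.4% had a copy at another listed CHH loss, 7.44% at a CHH gain and 6.12% at both. A sequence with more copies has more places where a copy can meet a listed region. The region with the most copies, chr1:15019680-15019751, had 939, all within the windows, and levels of 0.167 in ndx1-4 and 0.0780 in Col-0. It is the last of the printed sequences, and 3 of its copies overlap a listed CHH gain and 51 a CHH loss. Next came chr1:14741463-14741572 with 894 copies and levels of 0.184 in ndx1-4 and 0.110 in Col-0. These repeated regions were picked after their copy number was known. How reads were assigned among copies is not given in the sources used here.

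CT or GA repeats of at least 20 bp made up part of 4 gains (1.63%, 95% Wilson interval 0.637% to 4.12%), again named after the fact, against 0.661% of all nuclear CHH regions. They include the largest gain of all, described above. Repeat lengths were counted in whole 2-base units. In the ARF23 intron, such units fill 66 of the 67 bp of chr1:16673564-16673630. The region chr1:13430232-13430282, the fourth of the printed sequences, is repeat over all of its 51 bp, 50 of them in whole units. It has 180 further copies, and its level was 0.154 in ndx1-4 and 0.0583 in Col-0. The fourth, chr1:13102854-13103005, holds a 92 bp repeat and had 0.128 in ndx1-4 and 0.0336 in Col-0. Such repeats occurred in 13 of the losses (1.07%) and in 1 of the arm gains.

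In base composition the gains lay between the losses and the arm gains. Their median GC content was 32.9%, against 36.8% for the losses and 30.2% for the arm gains. CAA and CTA, the trinucleotides at which CMT2 is known to act preferentially, were 29.7% of the reference CHH cytosines in the gains. The shares were 28.2% in the losses, 28.2% over the whole windows and 31.8% in the arm gains. Every reference CHH cytosine was counted in 198 of the gains (80.8%), and the lowest counted share in a gain was 51.7%.

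Most gains had no other gain within 5000 bp. The median distance to the next gain was 19696 bp and to the next loss 7938 bp. Another gain lay within 5000 bp of 61 gains and a loss within 5000 bp of 94 (38.4%). Of the losses, 55.5% had another loss within that distance. With gaps of up to 5000 bp joined, there were 184 single gains, 23 pairs and 5 runs of 3. One of these runs, on chromosome 3, surrounds RALFL27, a gene of the RALF family of small signalling peptides. The regions chr3:11671253-11671313 and chr3:11671365-11671425 lie 324 and 212 bp upstream of RALFL27, with 0.207 and 0.254 in ndx1-4, against 0.137 and 0.176 in Col-0. The third, chr3:11673001-11673105, lies 762 bp downstream, with 0.0696 in ndx1-4 and 0.0238 in Col-0. Another run extends from chr3:15776992-15777289, next to AT3G43970, to chr3:15779397-15779559, which lies 37 bp upstream of a ribosomal protein S14 family gene, AT3G43980, and had 0.0904 in ndx1-4 and 0.0298 in Col-0. In the copy of the mitochondrial genome inserted on chromosome 2, 1 gain and 3 losses were listed, and the gain had 0.0669 in ndx1-4 and 0.0118 in Col-0.

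Genes of the methylation machinery were looked up by name. Of 37 listed symbols for DNA methylation, demethylation and small RNA genes, with NDX and its target FLC, 33 distinct genes were matched, and 2 of them lie in the windows. These are DCL3, the dicer of the small RNA pathway, and CLSY1, a chromatin remodeller that brings Pol IV to its targets. Neither had a listed CHH gain within 2000 bp, and CLSY1 had 1 listed CHH loss. Among the genes outside the windows, SUVH2 and DMS3 each had 1 listed CHH gain within 2000 bp, and DRM1 had 1 CHH loss. The symbols CLSY2, CLSY3 and CLSY4 were not matched.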

How the data were processed

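Genomic DNA of 14-day-old Arabidopsis seedlings was sequenced after bisulfite treatment, with 2 libraries of ndx1-4 and 2 of Col-0. The submitters' processing notes name Bismark and the TAIR10 genome. The region caller, its thresholds and the coverage are not given in the sources used here. In the deposited table, levels are fractions with 1 mean per genotype from the authors, while the labels state only 15000000 to 17000000 raw reads, so the depth behind each region is unknown and no interval of a level was possible. Columns of the authors' own comparison (difference and area statistic) were not used, and differences were taken from the 2 levels.

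Coordinates were 1-based. Both ends of 100% of the nuclear CHH regions fell on a CHH cytosine of RefSeq TAIR10.1, whose gene annotation was used. Overlap meant at least 1 bp. Further copies were found with BLAST+ 2.17.0 (identity at least 90%, at least 80% of the region). Python 3.11.15, pandas 2.3.3 and numpy 2.4.6 were used, and the overlap, counting and merging code was tested on simulated data. Shares have 95% Wilson intervals that cover the counting of regions only.

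The regions, gene lists and features were chosen with earlier results of these data known. Regions named in the text were the 10 with the largest difference, the 5 with the most cytosines, the largest on each chromosome, up to 10 overlapping both a listed CG and CHG region, those at the limits of the rule and the longest runs, and those named otherwise are said to be so. 1 region that this rule names is not reported here. The longest runs were 5, since runs of 3 regions tied, and 2 are described.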

Additional observations from a re-analysis of the deposited data

How the results depend on the processing

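No paired analysis was possible because each genotype has 1 combined level per region, and for the same reason no library could be left out. Of 154 values recomputed under other settings, 133 stayed within 1.5 times the count or within the 95% interval of the share or median as reported, leaving out each chromosome in turn included. Many of these could move little or not at all. Asking for the whole region and 5000 bp around it inside the window kept the same 245 gains of 1455 regions. Leaving out a chromosome keeps most of the same regions. The tally is therefore only a description. With windows trimmed by 0.5 Mb at each end there were 146 gains, 12.9% of the CHH regions listed there, and 8.22% of them overlapped a CG gain. With windows extended by 0.5 Mb, gains were 20.8% of the CHH regions. With an absolute difference of at least 0.1, 60 gains remained, 24.1% of the CHH regions. Their median difference was 0.113 and their median level 0.237 in ndx1-4 and 0.124 in Col-0, with 15.0% below 0.05 in Col-0 and 13.3% overlapping a CHG gain. With a gene or pseudogene counted within 1000 bp, 42.0% of the gains were at a protein-coding gene, 39.6% at a pseudogene and 25.7% at none, which follows from the wider reach. Regions with no further copy were a setting added after the data were seen. They left 143 gains, 23.1% of the CHH regions, with a median Col-0 level of 0.0609 and 41.3% below 0.05. Of these, 21.7% overlapped a CG gain and 14.7% a CHG gain, and CAA and CTA were 30.6% of their CHH cytosines. The cause was not tested for these shifts, except that a floor on the difference by its construction removes gains at low levels. The coverage of each region is unknown, so the precision of a level cannot be given, and places outside the list were not judged.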
